A study of Mus musculus with 14 samples.

Results

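The genes described here encode 6 RNA-binding proteins that read elements in the 3' untranslated regions of mRNAs: Pum2 of the Pumilio family, Nanos1 of the Nanos family, and the cytoplasmic polyadenylation element binding proteins Cpeb1, Cpeb2, Cpeb3 and Cpeb4. They were chosen by name, as proteins of families whose binding elements the study examined, and not by how they changed. They are 6 of the 19938 genes that the array measures with a probe set of exactly 1 gene symbol, and each of the 6 has 1 such probe set. The levels come from 14 samples of 4T1 cells, a mouse mammary tumor line of BALB/c origin, hybridized to Affymetrix Mouse Gene 1.0 ST arrays, and are given as log2 intensities.

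All cells had been transduced with lentivirus. One pair of groups was selected with blasticidin and carried either the empty over-expression vector (vector control, n = 3) or FLAG-tagged human CNOT7 (CNOT7 over-expression, n = 3). The other groups were selected with puromycin and carried a hairpin against mouse Cnot7, either sh74 (n = 2) or sh75 (n = 3), or a scrambled hairpin (shScramble, n = 3). The samples are called biological replicates, but no label says that each came from its own culture, so the spread behind the p-values may be technical. Because the over-expressed cDNA is human, the mouse probes may miss it.

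Pumilio proteins bind short elements in 3' untranslated regions and, often together with Nanos proteins, bring deadenylases to the mRNA, whose poly(A) tail is then shortened. CPEB proteins bind a uridine-rich element and can either hold an mRNA with a short tail or promote its readenylation, a switch best known from oocytes and neurons. Both families meet the CCR4-NOT deadenylase complex, of which CNOT7 is a catalytic subunit: its scaffold CNOT1 contacts NANOS1 and PUM2, and the adaptor TOB1 links CPEB3 and CPEB4 to CNOT7. The study asked whether the complex acts in metastasis, and the arrays ask here whether the transcripts of these recruiting proteins themselves moved in cells given the CNOT7 construct or a hairpin against Cnot7.

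The guide strands of the hairpins are shown because they define the knockdown groups and because a hairpin can act on other mRNAs through its seed. Each is 21 bases long, written 5' to 3', with bases 2 to 8 (the seed) in capitals.
sh74: tAAGTACTgcagaatagaagg
sh75: aACAAGTCtacattacaccgc
The seeds differ from each other, and 0 of 1738 mature mouse miRNAs in RefSeq carry either one.

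Cnot7 itself checked the hairpins. Its log2 level was 10.44, 10.33 and 10.20 in the shScramble samples, 8.71 and 9.33 with sh74, and 7.52, 8.51 and 8.07 with sh75. Every hairpin sample lay below every shScramble sample, and 3.93% of all probe sets were separated in that comparison in either direction. Relative to shScramble, Cnot7 fell by 2.29 with sh75 (SE 0.26, limma adjusted p = 0.00911), and for sh74 the difference was -1.31 (SE 0.29, adjusted p = 0.279). The sh75 call was lost without shScramble replicate 1 (adjusted p = 0.0546) or replicate 2 (adjusted p = 0.0545). In vector control cells Cnot7 read 10.07, 10.52 and 10.15 and in cells with the CNOT7 construct 10.64, 10.02 and 10.08, so the groups overlapped and their means were both 10.25 (difference 0.00076, SE 0.26, adjusted p = 1). The array therefore gives no check of the over-expression, and the group keeps that name from its label. Array medians lay between 6.31 and 6.38 in all samples.

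Levels were read against olfactory receptor genes, which mammary tumor cells are not known to use. Their 90th percentile over 1035 probe sets, 4.91, is called the background limit below. Pum2, Nanos1, Cpeb2 and Cpeb4 lay above it in all 14 samples, Cpeb3 in 1 sample and Cpeb1 in 0. A value above the limit does not by itself show that a gene is expressed. The neuronal marker Rbfox3 (5.21 to 5.52) and the T cell marker Cd3e (5.68 to 6.04) lay above it in every sample. Of 5 immune and 5 fibroblast markers measured, 3 in each list lay above it in every sample and 2 below. Among those above were Col1a1 (6.64 to 6.83) and Cd68 (6.77 to 9.01). Nanos1 (6.54 to 7.03), Cpeb2 and Cpeb4 had values in that range, so the limit alone does not show them to be expressed. Whether 4T1 cells express these markers was not tested. All 7 mammary epithelial markers examined lay above the limit in every sample, whereas 4 of 5 germ cell markers, Ddx4, Dazl, Sycp3 and Mael, lay below it in every sample and the other, Zp3 (4.80 to 4.93), exceeded it in 3. Of the epithelial markers, Epcam (5.98 to 10.01) and Cldn7 (5.78 to 10.92) had lowest values in the range of Cd3e, so the limit does not show them to be expressed in those samples.

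**Figure D1:**
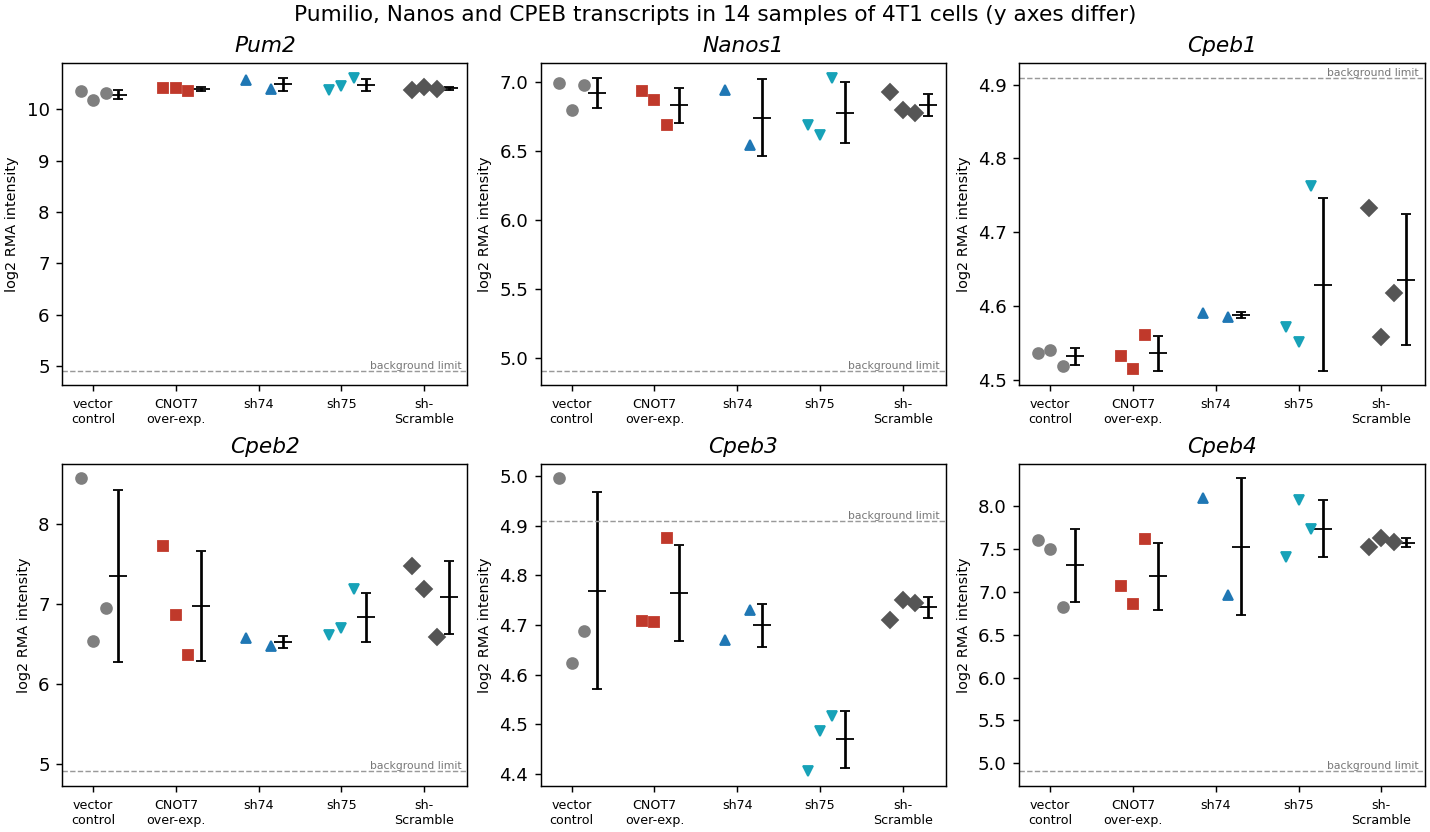
Log2 RMA intensity (y axis, a different range in each panel) of the 6 genes in 14 samples, by group (x axis). Symbols are samples, black bars show the mean ± SD, and the dashed line is the background limit of 4.91. Pum2 varies little, Cpeb2 and Cpeb4 vary widely inside the groups, and only Cpeb3 has its 3 sh75 samples below all other samples.

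None of the 6 transcripts passed the test in any comparison, and the 4 that lay above background kept overlapping values between treated and control cells except Cpeb2 with sh74. A single limma model covered 21789 probe sets with exactly 1 symbol, and a gene is called here when its adjusted p was under 0.05. With over-expression 0 of the 6 were called, where 0% of all probe sets were. The count was 0 with sh74 (0.00918% of all probe sets), 0 with sh75 (0.0918%), 0 for the mean of both hairpins (0.0184%) and 0 between the hairpins (0.174%). The contrast of the over-expression change with the mean change of both hairpins also called 0 (0%), and a test of any difference among the 5 groups called 0 (0.0597%). With so few calls over the whole array, a count of 0 among 6 genes does not set them apart.

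At an unadjusted p under 0.05, 0 of the 6 passed with over-expression (2.58% of all probe sets) and 0 with sh74 (7.33%). With sh75 1 passed (8.26%), which was Cpeb3. Between the hairpins 1 passed (8.93%), again Cpeb3, and among the 5 groups 1 passed (9.24%), also Cpeb3. For the mean of both hairpins 0 passed (7.3%), and for the over-expression minus knockdown contrast 0 passed (3.49%). Values of treated and control samples did not overlap for 0 of the 6 with over-expression (7.72% of all probe sets), for Cpeb2 with sh74 (22%), for Cpeb3 with sh75 (13.5%), for 0 with the samples of both hairpins pooled (3.93%), and for Cpeb2 and Cpeb3 between the hairpins (22.5%). The median change of the 6 was -0.05 with over-expression, -0.05 with sh74 and -0.03 with sh75, while the medians over all probe sets were 0.0089, 0.0044 and -0.00054.

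**Figure D2:**
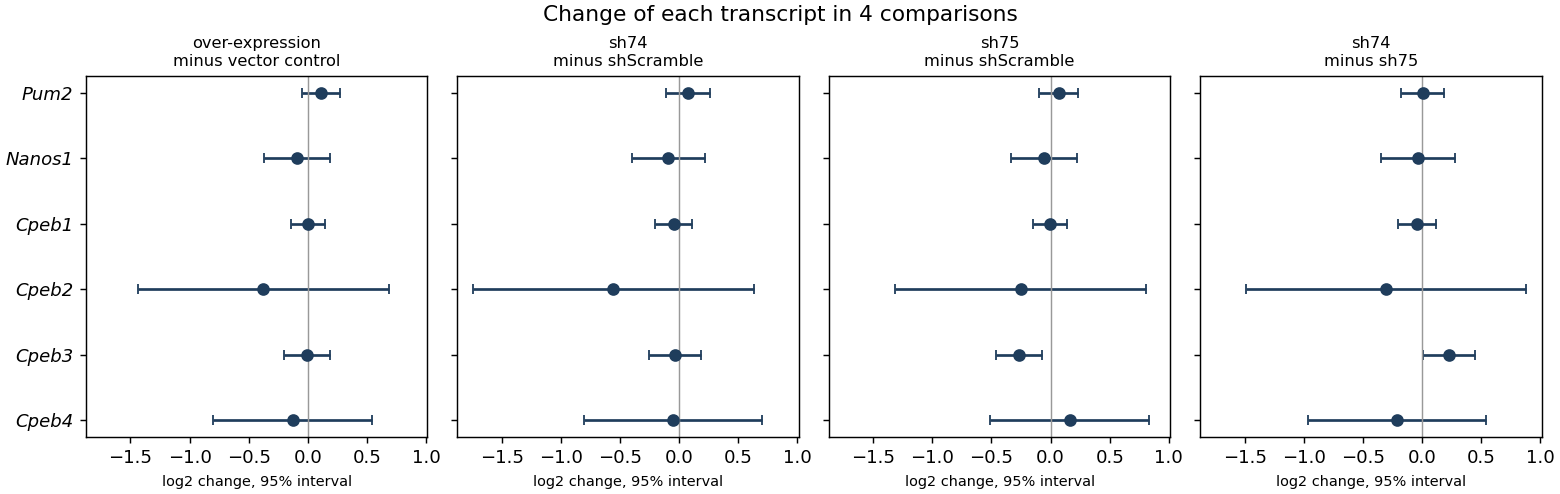
Log2 change of each transcript (x axis) in 4 comparisons, from limma over 14 samples. Points are estimates and bars are 95% confidence intervals. The intervals of Cpeb2 and Cpeb4 are wide, those of Pum2 narrow, and only the 2 intervals of Cpeb3 that involve sh75 leave 0 outside.

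Pum2, a Pumilio repressor that binds target mRNAs through its RNA-binding repeats, was clearly detected, and its values spanned 0.43 log2 units. Its values were 10.35, 10.18 and 10.31 in vector control and 10.41, 10.41 and 10.35 in over-expressing cells. They were 10.38, 10.44 and 10.40 with shScramble, 10.57 and 10.39 with sh74, and 10.37, 10.45 and 10.60 with sh75. The lowest value came from vector control replicate 2 and the highest from sh75 replicate 3, and every treated group overlapped its control. All 3 vector control values lay below every shScramble, sh74 and sh75 value, and how many probe sets showed that was not counted. Between the groups lay 52.8% of the variation of Pum2, against a median of 33% over the probe sets above background. The limma F test of any difference among the 5 groups gave it an adjusted p of 0.677. Group means ran upward in the order vector control (10.28 ± 0.09, SD, n = 3), over-expression (10.39 ± 0.04, n = 3), shScramble (10.41 ± 0.03, n = 3), sh75 (10.48 ± 0.12, n = 3) and sh74 (10.48 ± 0.13, n = 2), with neighbours overlapping at each step. The change was 0.11 with over-expression (95% interval -0.05 to 0.27), 0.07 with sh74 (-0.11 to 0.26) and 0.07 with sh75 (-0.09 to 0.23). The within-group SD of Pum2, 0.0856, stood at percentile 16 among 16017 probe sets with a mean above the background limit, so the assay was comparatively tight for this gene. On the fold scale, the upper limit of its change was 1.21 with over-expression, 1.19 with sh74 and 1.17 with sh75, and the lower limits were 0.964, 0.928 and 0.936.

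Nanos1, a zinc finger partner of Pumilio proteins that contacts CNOT1, was above background and overlapped between all treated and control groups. It read 6.99, 6.79 and 6.98 in vector control and 6.94, 6.87 and 6.69 in over-expressing cells. The shScramble samples gave 6.92, 6.80 and 6.77, the sh74 samples 6.94 and 6.54, and the sh75 samples 6.69, 6.62 and 7.03. One sample of each hairpin was at or above the level of every shScramble sample and the lowest value of all was that of sh74 replicate 2. Group means ran from 6.92 ± 0.11 (SD, n = 3) in vector control to 6.74 ± 0.28 (n = 2) with sh74, with over-expression, shScramble (6.83 ± 0.08, n = 3) and sh75 (6.78 ± 0.22, n = 3) between them and no gap between neighbours. Changes were -0.09 with over-expression (95% interval -0.37 to 0.19), -0.09 with sh74 (-0.40 to 0.22) and -0.05 with sh75 (-0.33 to 0.23). Its within-group SD of 0.165 was close to the median over probe sets of 0.162.

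Cpeb1, the founding CPEB protein, which controls maternal mRNAs in oocytes, was not distinguishable from background. All 14 values lay between 4.51 and 4.76, under the limit of 4.91. The highest were sh75 replicate 3 (4.76) and shScramble replicate 1 (4.73). No order or fold is read from values at that level. The intervals of its log2 differences, -0.14 to 0.15 with over-expression, -0.21 to 0.11 with sh74 and -0.15 to 0.14 with sh75, describe the background signal of the probe set.

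Cpeb2, a CPEB protein that has been described as a translational repressor, varied more than most genes above background, and it did so inside the groups. Its values were 8.57, 6.54 and 6.94 in vector control and 7.72, 6.86 and 6.36 in over-expressing cells. With shScramble they were 7.47, 7.19 and 6.59, with sh74 6.57 and 6.47, and with sh75 6.61, 6.70 and 7.18. Vector control replicate 1 was the highest of all samples, over-expression replicate 3 the lowest, and both came from the blasticidin-selected cells. The range of 2.21 log2 units is 4.63-fold, and 19.4% of its variation lay between the groups, against a median of 33% over the probe sets above background. The within-group SD of 0.654 was at percentile 97.5.

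The group means of Cpeb2 were 7.35 ± 1.07 (SD, n = 3) in vector control, 7.08 ± 0.45 (n = 3) with shScramble, 6.98 ± 0.69 (n = 3) with over-expression, 6.83 ± 0.31 (n = 3) with sh75 and 6.52 ± 0.07 (n = 2) with sh74. Both sh74 values lay below the 3 shScramble values and the 3 sh75 values, a separation that 22% and 22.5% of all probe sets showed in those comparisons. The change with sh74 was -0.56 (SE 0.54, 95% interval -1.74 to 0.63, limma adjusted p = 0.89). The change with sh75 was -0.25 (SE 0.48, interval -1.31 to 0.81), and that with over-expression was -0.37 (SE 0.48, interval -1.44 to 0.69). Without vector control replicate 1 the over-expression change became 0.23, so 1 sample set its direction. Fold changes between 0.370 and 1.61 with over-expression, 0.299 and 1.55 with sh74, and 0.403 and 1.75 with sh75 lay inside the intervals.

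Cpeb3, a CPEB protein studied in synaptic memory that binds TOB1, was at background, and it was the gene with the smallest p of the 6. The vector control samples read 4.996, 4.62 and 4.69 and the over-expressing samples 4.71, 4.71 and 4.88. The shScramble samples read 4.71, 4.75 and 4.75, the sh74 samples 4.67 and 4.73, and the sh75 samples 4.41, 4.49 and 4.52. Only vector control replicate 1 exceeded the limit of 4.91, and all 3 sh75 samples lay below the other 11 samples. Such a separation from shScramble was shown by 13.5% of all probe sets, and the separation from sh74 by 22.5%.

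The Cpeb3 difference between sh75 (4.47 ± 0.06, SD, n = 3) and shScramble (4.74 ± 0.02, n = 3) was -0.27 (SE 0.09, 95% interval -0.46 to -0.07, limma unadjusted p = 0.0125, adjusted p = 0.447). Between sh74 (4.70 ± 0.04, n = 2) and sh75 it was 0.23 (SE 0.10, interval 0.01 to 0.45, adjusted p = 0.531), and between sh74 and shScramble -0.04 (SE 0.10, interval -0.26 to 0.18). The interval with over-expression was -0.20 to 0.19. No fold is given, since both sides of each comparison had means under the background limit. The unadjusted p for sh74 against sh75 passed 0.05 in neither fit that left out an sh74 sample (0.0742 without replicate 1, 0.159 without replicate 2).

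Cpeb4, a CPEB protein known from mitosis and tumor growth, was above background in every sample and, like Cpeb2, spread widely inside the groups. It read 7.60, 7.49 and 6.82 in vector control and 7.06, 6.86 and 7.61 in over-expressing cells. It read 7.51, 7.62 and 7.57 with shScramble, 8.08 and 6.95 with sh74, and 7.40, 8.06 and 7.73 with sh75. The sh74 samples lay far apart, one the highest of all and the other near the lowest, while the shScramble samples were close together. The range was 1.27 log2 units, or 2.41-fold, and the within-group SD of 0.413 was at percentile 92.6.

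Group means of Cpeb4 were 7.73 ± 0.33 (SD, n = 3) with sh75, 7.57 ± 0.05 (n = 3) with shScramble, 7.52 ± 0.80 (n = 2) with sh74, 7.30 ± 0.43 (n = 3) in vector control and 7.18 ± 0.39 (n = 3) with over-expression, and neighbours in that order overlapped. The change was 0.16 with sh75 (SE 0.31, 95% interval -0.51 to 0.84), -0.05 with sh74 (SE 0.34, interval -0.80 to 0.70) and -0.13 with over-expression (SE 0.31, interval -0.80 to 0.55). Without sh74 replicate 2 the sh74 change became 0.51, and without replicate 1 it became -0.61. The interval with sh75 spans folds of 0.702 to 1.78.

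4T1 samples differed in epithelial and mesenchymal genes inside the groups, and each sample was given a score, the mean of the centered mesenchymal genes minus that of the epithelial genes. The score was -0.15, -0.89 and 0.24 in vector control, -0.90, 0.23 and 1.04 with over-expression, and -0.79, -1.26 and 0.85 with shScramble. It was 1.54 and -1.26 with sh74 and -0.70, 1.17 and 0.87 with sh75. Scores thus ran from low to high within each group, most widely in sh74. The summed level of the 7 mammary epithelial markers ranged from 13.75 to 14.20 in vector control, 13.89 to 13.93 with over-expression, 13.90 to 14.20 with shScramble, 13.71 to 14.31 with sh74 and 13.56 to 14.10 with sh75 (log2 of the summed intensities). That sum does not show the wide ranges of Epcam and Cldn7 given above.

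Cpeb4 rose in the order of the score in both hairpin groups, but not in every group. In vector control its lowest value, 6.82, went with the highest score, 0.24, and with shScramble its values hardly differed. With 1 slope for all groups, Cpeb4 rose by 0.21 log2 units per score unit (SE 0.10, 95% interval 0.0015 to 0.43, limma unadjusted p = 0.0487, adjusted p = 0.267). It did not pass the adjusted test, in which 5.22% of 21757 probe sets did. At the unadjusted threshold 18.4% of them passed. Without either sh74 sample it was 0.11 (unadjusted p = 0.355). Leaving out each of the other 12 samples gave slopes of 0.18 to 0.27, with an unadjusted p above 0.05 in 7 of them (0.00532 to 0.111 over the 12). With the score as a covariate, the Cpeb4 change with sh75 was -0.02 instead of 0.16. The slope of Cpeb2 was -0.12 (SE 0.18, interval -0.52 to 0.28), and those of Pum2, Nanos1, Cpeb1 and Cpeb3 were 0.04, 0.04, 0.01 and 0.02 with intervals that held 0. The part of cell state in the group differences of these genes was not tested beyond this covariate.

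**Figure D3:**
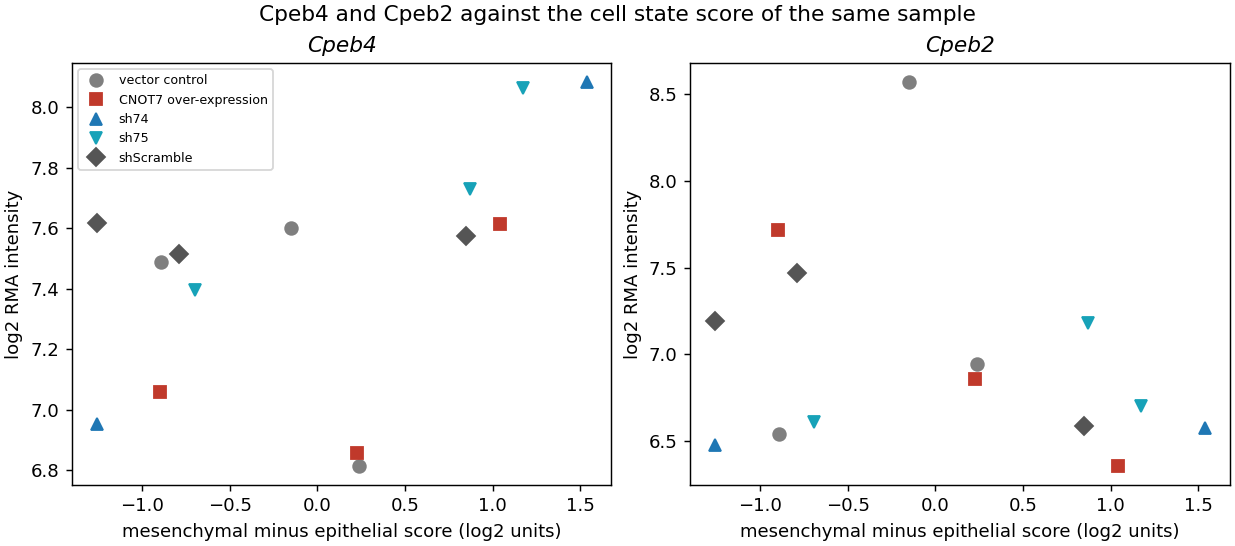
Log2 RMA intensity (y axis) of Cpeb4 and Cpeb2 against the mesenchymal minus epithelial score (x axis, log2 units) of the same sample, 14 samples, symbols by group. The highest Cpeb4 value belongs to the sh74 sample with the highest score, while Cpeb2 is highest in a vector control sample whose score is -0.15.

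Among the 4 transcripts above background, Pearson's r over the 14 samples ran from -0.0482 (Cpeb2 and Cpeb4) to 0.626 (Nanos1 and Cpeb2). These are descriptions over arrays that share groups and scaling. Among 10235 genes with a mean of at least 6, those whose levels ran most like Pum2 were Txnrd1, a thioredoxin reductase (r = 0.894), Gclc, which acts in glutathione synthesis (r = 0.872), and Tob2, a deadenylase adaptor (r = 0.85). The most opposite was Ano9 (r = -0.835). For Nanos1 they were Grifin (r = 0.845), Usp24 (r = 0.821) and Clptm1l (r = 0.798), with Meis3 most opposite (r = -0.87).

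Cpeb2 ran most like Ccnj (r = 0.853), Ctage5 (r = 0.829) and Tnfsf15 (r = 0.82), and most opposite to Tmed4 (r = -0.908). By ranks these were weaker, with Spearman's rho of 0.749, 0.622, 0.587 and -0.82 in that order. Cpeb4 ran most like Ftl1, the ferritin light chain (r = 0.891), Mfsd11 (r = 0.856) and Sqstm1, an autophagy receptor (r = 0.843), and most opposite to Prepl (r = -0.853). With group means removed, r was 0.851 for Pum2 and Txnrd1, 0.891 for Nanos1 and Grifin, 0.833 for Cpeb2 and Ccnj, and 0.91 for Cpeb4 and Ftl1. The 4 pairs had been picked for their r over these same samples, so the values with group means removed are not a separate test. The extremes of so many correlations over 14 samples are large in any case, and no p is attached to them.

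The relatives of these proteins, their partners and their reported target mRNAs were read from the same fit. In that fit no comparison called more than 0.174% of all probe sets, so a count of 0 does not set a list apart. Of relatives in the same families, Pum3, Nanos2 and Nanos3 were measured and 0 of 3 were called in any comparison. Nanos3, a germ cell gene, read 6.207, 6.225 and 6.199 with sh75 and 6.140, 5.999 and 6.060 with shScramble. The 2 groups did not overlap, as for 13.5% of all probe sets, and the change was 0.14 (SE 0.07, 95% interval -0.01 to 0.30, limma adjusted p = 0.625). Values of Nanos3 over all samples (5.79 to 6.23) lay near those of Cd3e (5.68 to 6.04), so the limit does not show it to be expressed. Pum3, a nucleolar Pumilio relative, differed by -0.41 with sh75 (SE 0.24, interval -0.94 to 0.12), and Nanos2 stayed close to the background limit in all groups (4.82 to 5.02).

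Of the 13 CCR4-NOT subunits and TOB adaptors, all above background, the targeted Cnot7 was the only one called, lower with sh75 and in the mean of both hairpins (adjusted p = 0.05 after rounding, just under the threshold). The second of these calls was lost without sh74 replicate 1, sh75 replicate 1 or 3, or any shScramble replicate (adjusted p between 0.0559 and 0.374). It was also lost in the fit of only those groups (0.393) and with all probe sets tested (0.0891). The same held with a random block by the number in the sample title (0.051) and with the cell state score as a covariate (0.0906). The median change of the list was 0.00 with over-expression, 0.02 with sh74 and -0.05 with sh75. At an unadjusted limma p under 0.05, 1 of the 13 passed with over-expression (2.58% of all probe sets), 3 with sh74 (7.33%) and 6 with sh75 (8.26%). For the mean of both hairpins 4 passed (7.3%), between the hairpins 4 (8.93%) and for over-expression minus knockdown 3 (3.49%). Except with over-expression, each count includes Cnot7. Cnot9, the subunit that docks several RNA-binding proteins on CNOT1, read 9.91, 9.93 and 9.85 with sh75 and 10.58, 10.51 and 10.58 with shScramble. Its values with sh74 were 10.30 and 10.65. The sh75 samples lay below all others, where 13.5% of all probe sets separated sh75 from shScramble and 22.5% separated it from sh74. The change of Cnot9 with sh75 was -0.66 (SE 0.11, 95% interval -0.90 to -0.42, limma adjusted p = 0.062). The adjusted p was 0.0382 with array weights, and over the other alternatives it ran from 0.0585 to 0.779.

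The enzymes and partners that lengthen or guard poly(A) tails had 25 members measured of 26 listed, all above background, and 0 were called. The median change was 0.02 with over-expression, -0.00 with sh74 and -0.03 with sh75. Tent2, the cytoplasmic poly(A) polymerase that works with CPEB1, read 10.28 and 9.91 with sh74, 9.44, 9.60 and 9.65 with sh75, and 9.63, 9.55 and 9.68 with shScramble. Both sh74 samples lay above all others. Of all probe sets, 22% separated sh74 from shScramble and 22.5% separated it from sh75. The change with sh74 was 0.47 (SE 0.11, 95% interval 0.24 to 0.71, limma adjusted p = 0.294), and sh74 minus sh75 was 0.53 (SE 0.11, adjusted p = 0.1). Without sh74 replicate 2 these became 0.66 (adjusted p = 0.0256) and 0.72 (adjusted p = 0.021), and without sh74 replicate 1 they became 0.28 (adjusted p = 1) and 0.34 (adjusted p = 0.364), where the lone sh74 sample borrowed its spread from the other groups. With the cell state score as a covariate, sh74 minus sh75 was 0.56 (adjusted p = 0.0387). Ddx6, a translational repressor and decay helicase, differed by 0.12 with sh74 (SE 0.11) and -0.03 with sh75 (SE 0.10).

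Of 8 mRNAs described as regulated by Pumilio proteins 7 were measured, and 0 were called. The median change was 0.07 with over-expression, -0.03 with sh74 and 0.03 with sh75. Cdkn1b, a cell cycle inhibitor under Pumilio control, differed by 0.12 with over-expression (SE 0.17), 0.29 with sh74 (SE 0.19) and 0.26 with sh75 (SE 0.17). Mapk14, the p38 kinase, read 8.31 and 8.11 with sh74 against 8.84, 8.80 and 8.99 with sh75, a difference of -0.67 (SE 0.18, limma adjusted p = 0.249).

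Of 15 mRNAs described as regulated by CPEB proteins 13 were measured, 10 of them above background in every sample, and 0 were called. The median change was 0.11 with over-expression, -0.15 with sh74 and -0.02 with sh75. Ccne1, a cyclin whose mRNA carries CPEB sites, read 9.16, 9.06 and 8.81 with over-expression and 8.34, 8.87 and 8.37 in vector control. The groups overlapped through the lowest over-expressing and the highest control sample. The change was 0.48 (SE 0.17, 95% interval 0.10 to 0.86, limma unadjusted p = 0.0171, adjusted p = 1). Mos, the oocyte kinase whose mRNA is a classical CPEB target, lay under the background limit in all 14 samples.

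**Figure D4:**
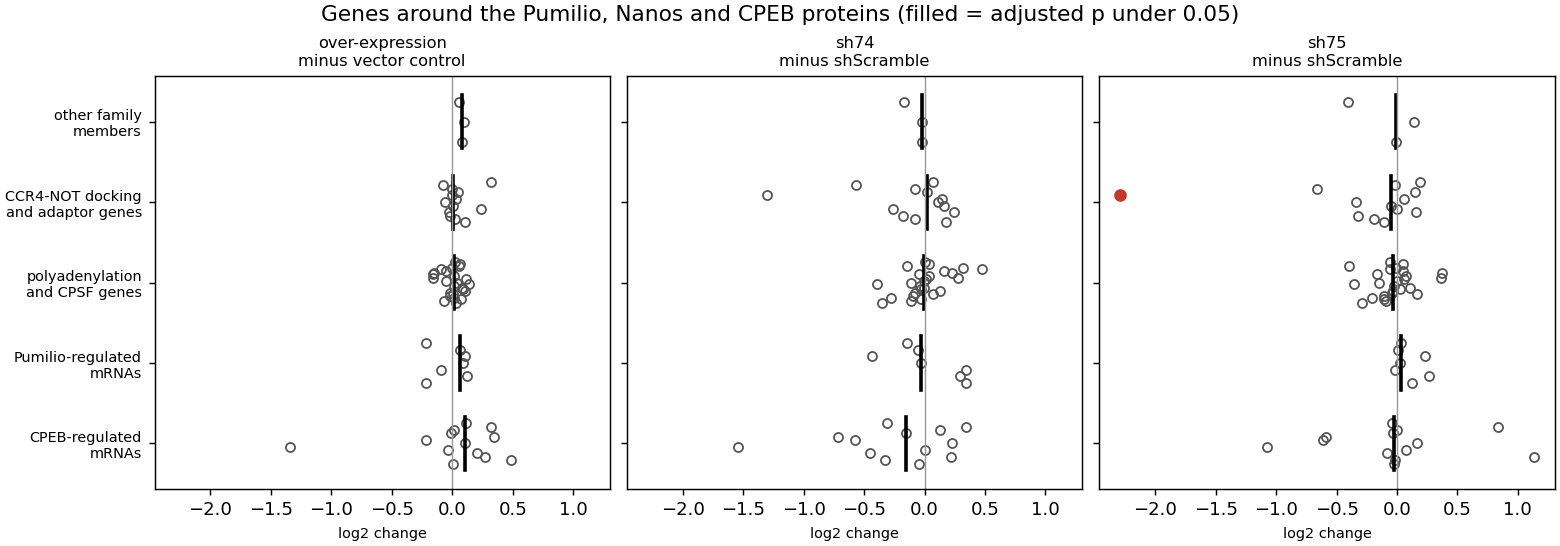
Log2 change (x axis) of the genes in 5 lists (rows) in 3 comparisons; each circle is a gene, black bars are list medians, and the filled circle has an adjusted p under 0.05. The filled circle is Cnot7 with sh75, and every list median lies within 0.2 of 0.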

How the data were processed

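The authors deposited log2 values that they had obtained with RMA, run in oligo (versions not given in the sources used here), and these were used without further normalization. RMA gives all arrays a common distribution, so a shift shared by most transcripts would not be seen. Groups came from the sample labels. Of 35556 probe sets, 21789 with exactly 1 gene symbol were tested, and a gene was read from its probe set with the highest mean. The annotation named no genome build, so no coordinates are given. A linear model with 5 groups was fitted over 14 samples with limma 3.58.1 in R 4.3.3 (moderated by eBayes, leaving 9 residual degrees of freedom), with two-sided tests and Benjamini-Hochberg adjustment over all tested probe sets. The number of arrays limits the precision. The fit was checked on simulated data. The 6 genes and the gene lists were chosen with earlier results of these data known. Named pathway genes were those with the 2 smallest p among the 5 groups in each list, and the family relatives measured. For each of the 6 genes above background in no less than 7 of 14 samples, the 3 most alike genes and the most opposite one were named, leaving out predicted genes, small RNAs and olfactory receptors. Alternatives were other tests, priors, weights, scalings, filters and probe sets. Others were a block by the number before the point in the sample title, the cell state score as a covariate, and leaving out each sample. The slopes on the score, their alternatives and the alternatives for pathway genes were chosen after seeing the data.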

Additional observations from a re-analysis of the deposited data

How the results depend on the processing

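The 6 genes gave 0 calls in all 126 recomputed counts of the 7 tests. Over the whole array these fits called 0 to 1 probe sets with over-expression, 0 to 35 with sh75 and 0 to 72 between the hairpins. For over-expression minus knockdown they called 0. The other tests had their largest counts without sh74 replicate 2, which left 1 sh74 sample. With so few calls, 0 among 6 genes does not set them apart. For over-expression minus knockdown, the fit of only the compared groups holds all 5 groups. Its count, and its changes among those counted below, therefore repeat the main fit. With few arrays, small changes of Cpeb2 and Cpeb4 are not detectable, and leaving out dim probe sets removed Cpeb1 and Cpeb3 from the test. Each gene has 1 probe set, so no other probe set could be tried. Of 366 changes and slopes recomputed on the whole set of samples, 354 kept their direction and their side of the threshold. Fits that changed only the prior, the probe sets tested or the groups included return the same difference of means. Its direction could not turn there, so the count of 354 is not a measure of robustness. The cause was not tested for those that turned. With array weights the over-expression change was 0.0088 for Cpeb3 and 0.054 for Cpeb4, and the sh75 change of Cpeb1 was 0.00034. With values quantile normalized again, the over-expression change of Cpeb1 was -0.0019, and sh74 minus sh75 was -0.019 for Pum2 and 0.00053 for Nanos1. Each sample's deviations from its group means were correlated between samples of different groups, over probe sets with a mean above the background limit. Samples with the same number before the point in their titles had r from -0.316 to 0.611 (median 0.0895, 6 of 13 pairs over 0.1). Those with different numbers had r from -0.571 to 0.571 (median -0.0984, 23 of 65 pairs over 0.1). The labels do not say what this number stands for, and some samples within the over-expression group and within the sh75 group share it. Whether it pairs the samples was not tested. With the title number as a fixed block, only sh75 minus shScramble could be fitted. There the change was 0.034 for Cpeb1, 0.017 for Cpeb2 and -0.29 for Cpeb3 (limma adjusted p = 0.727). Cnot7 was no longer called (-2.24, limma adjusted p = 0.262). With a random block by title number 0 of the 6 genes were called. With the score as a covariate, Cpeb4 was -0.020 with sh75 and -0.092 for both hairpins, and Cpeb2 was -0.0065 for over-expression minus knockdown. The slope of Cpeb3 without groups was -0.010. In the fit of only the compared groups and in the methods' t-test, Cnot7 had adjusted p = 0.0999 and 0.862 with sh75, and 0.393 and 0.865 for both hairpins. By that t-test Cpeb3 with sh75 was the only one of the 6 with an unadjusted p under 0.01 (0.00849). In that comparison 177 of 21789 probe sets were under 0.01, and Cpeb3 lay under the background limit in both groups. The study used 0.01 for transcripts over knockdown and over-expression together, which is not the same comparison. After Benjamini-Hochberg adjustment 0 of the 6 were called.

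Leaving out 1 sample turned 49 of 348 values, all of them uncalled. For the mean of both hairpins, values ran from -0.066 to 0.021 for Cpeb1, -0.23 to 0.34 for Cpeb4 and -0.17 to 0.027 for Nanos1. For over-expression minus knockdown, values ran from -0.017 to 0.070 for Cpeb1, -0.37 to 0.64 for Cpeb2, -0.46 to 0.10 for Cpeb4, -0.12 to 0.081 for Nanos1 and -0.012 to 0.084 for Pum2. For over-expression, values ran from -0.0083 to 0.015 for Cpeb1, -0.78 to 0.23 for Cpeb2, -0.077 to 0.11 for Cpeb3 and -0.37 to 0.034 for Cpeb4. For sh74 minus sh75, values ran from -0.080 to 0.026 for Cpeb1, -0.78 to 0.35 for Cpeb4, -0.23 to 0.16 for Nanos1 and -0.084 to 0.098 for Pum2. For sh74, values ran from -0.087 to 0.00070 for Cpeb1, -0.61 to 0.51 for Cpeb4, -0.29 to 0.11 for Nanos1 and -0.016 to 0.17 for Pum2. For sh75, values ran from -0.074 to 0.042 for Cpeb1, -0.0044 to 0.33 for Cpeb4 and -0.18 to 0.026 for Nanos1. For the slope, values ran from -0.00086 to 0.017 for Cpeb1 and -0.015 to 0.066 for Nanos1.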
